A study of Saccharomyces cerevisiae with 22 samples.

Results

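The genes of ergosterol synthesis, the electron donors that serve it, the enzymes that store sterols as esters and the transcription factors Upc2 and Ecm22 were described in budding yeast with and without glucose. The 30 genes were a fixed list of names, without a cut-off on measured values, and the list was chosen with earlier results of these data known. Of these, 29 were found by name among the 5381 genes of the deposited table, and ERG29, which the table lists only as YMR134W, was added through its RefSeq symbol. The libraries hold polyA-selected mRNA and ribosome footprints, short mRNA fragments left under ribosomes after digestion with RNase I.

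All cells were Saccharomyces cerevisiae at 30 °C, harvested from synthetic complete cultures that had reached an OD600 between 0.3 and 0.4. Glucose samples stayed in glucose, and starved samples spent 15 min in medium that lacked it. Every sample, glucose controls included, received 100 ug/ml cycloheximide, which stops ribosomes on the mRNA, for 1 min. The strains were BY4741, a relative of the reference strain S288C, and EY0690, labelled as w303. Footprints and polyA RNA had 2 libraries per strain and condition, so each gene has 8 values of each kind. Unselected RNA has 1 library per condition in BY4741, and in EY0690 total and RiboZero RNA share the authors' pooled column. The labels do not say whether the libraries of a group came from separate cultures, so p-values measure the spread between these libraries, which may be technical.

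Yeast builds ergosterol from acetyl-CoA in 3 stretches: the mevalonate pathway, the isoprenoid steps that end at lanosterol, and the steps at the endoplasmic reticulum that turn lanosterol into ergosterol. Several of the later enzymes need molecular oxygen, and Erg11 and Erg5 are cytochromes that take their electrons from the reductase Ncp1 or from cytochrome b5. Upc2 and Ecm22 bind sterol regulatory elements in the promoters of ERG genes, and the acyltransferases Are1 and Are2 esterify sterols for storage in lipid droplets.

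Downstream counts, those past the start of the coding sequence, totalled 698310 to 8110916 in the footprint libraries and 1146371 to 7003745 in the polyA libraries. Levels are CPM, counts scaled by library size and by TMM, so that a change is relative to other mRNAs. In bulk samples, fewer cells with a transcript and less of it per cell cannot be told apart. The 2 BY4741 footprint libraries numbered 2 stood apart: across genes, their correlation with the polyA library of the same number was 0.946 and 0.942, against 0.820 to 0.873 in the other 6. Values without them are printed beside some of the results that use them, not beside all. Reads of both strains were aligned to the S288C-derived build R64, and the part of sequence differences in the EY0690 values was not tested.

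The sequence that Upc2 and Ecm22 are known to bind was looked for upstream of the 30 genes in build R64, to show which members carry it. Its core, TCGTATA on either strand, lay within 600 bases before the start codon in 9 of the 30 genes, against 8.01% of the same windows over 5379 genes. In the window from 250 bases before to 50 bases after the start codon it lay in 3 of the 30 (ERG13, ERG2 and ERG8), against 4.20%. The stretches below show each match, or the match farthest from the gene and any within 60 bases of it, with 20 flanking bases. They are written 5′ to 3′ on the gene's strand, with the core in capitals: ERG13 at chrXIII:20723-20769 (minus strand), ERG8 at chrXIII:712144-712190 (plus strand), ERG1 at chrVII:848779-848825 (minus strand), ERG25 at chrVII:610061-610127 (plus strand), ERG28 at chrV:238268-238314 (minus strand), ERG6 at chrXIII:253396-253442 (minus strand), ERG2 at chrXIII:667332-667378 (plus strand), ERG3 at chrXII:253515-253601 (plus strand) and CYB5 at chrXIV:417551-417597 (minus strand).
ERG13: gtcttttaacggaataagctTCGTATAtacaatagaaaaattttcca
ERG8: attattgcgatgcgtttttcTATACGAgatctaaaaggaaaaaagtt
ERG1: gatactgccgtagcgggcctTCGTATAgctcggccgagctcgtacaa
ERG25: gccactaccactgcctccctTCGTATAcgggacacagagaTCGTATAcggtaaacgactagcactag
ERG28: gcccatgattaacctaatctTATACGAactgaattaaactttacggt
ERG6: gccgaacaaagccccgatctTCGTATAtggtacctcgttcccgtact
ERG2: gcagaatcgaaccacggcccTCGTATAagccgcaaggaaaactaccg
ERG3: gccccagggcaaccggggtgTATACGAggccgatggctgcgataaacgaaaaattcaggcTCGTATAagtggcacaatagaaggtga
CYB5: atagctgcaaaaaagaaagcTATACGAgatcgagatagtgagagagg
ERG25 and ERG3 carry the core at a pair of places in the stretch shown, and ERG13 has a further match 101 bases before its start codon. The 9 carriers include enzymes of all 3 stretches of the pathway and cytochrome b5. A core of the site of Rox1, a repressor of hypoxic genes, ATTGTTC on either strand, lay in 8 of 30 members in the window from 250 bases before to 50 after the start codon, against 7.79% of all windows. In the 600 bases before the start codon it lay in 9 of 30 members, against 13.98% of windows. ERG1 held it 86, 68 and 49 bases before its start codon. The pattern CGGNNNTANCGG, a form of the site of the heme-responsive activator Hap1, was found in 0 of 30 members, against 0.13% of windows of the shorter length and 0.558% of the longer. A match is a run of letters and does not show binding.

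All 30 members have 1 coding exon in the R64 annotation. The members with the largest values below lie, in R64, as follows: HMG1 at chrXIII:115734-118898 (minus strand), ERG12 at chrXIII:684467-685798 (plus strand), ERG28 at chrV:237570-238016 (minus strand), ERG5 at chrXIII:300869-302485 (minus strand), CYB5 at chrXIV:416940-417302 (minus strand), NCP1 at chrVIII:190543-192618 (plus strand), ARE2 at chrXIV:665339-667267 (plus strand) and ECM22 at chrXII:600019-602463 (minus strand).

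In glucose, polyA levels per kb of coding sequence spanned from 821 CPM per kb for ERG2, the sterol isomerase, to 15.8 and 15.3 CPM per kb for the regulators ECM22 and UPC2. The median over all genes was 59.7 CPM per kb. By the mean over both strains, ERG2 was followed by the demethylase ERG11 (558), the methylsterol oxidase ERG25 (555) and the desaturase ERG3 (509), whose means lie within their spread over 4 libraries. That order did not hold in BY4741, where the reductase gene ERG4 stood at 559 and 588 CPM per kb and ERG11 at 557 and 598, whereas ERG4 was at 233 and 366 in EY0690. The reductase isozymes differed: HMG1, which makes the main aerobic form of HMG-CoA reductase, stood at 68.4 ± 36.6 CPM per kb (SD, n = 4) and HMG2 at 22.2 ± 2.46. These SDs are over both strains, and that of HMG1 includes a strain difference. Its glucose libraries read 99.8 and 140.5 CPM in BY4741 and 279 and 346 in EY0690. Both regulators were at the bottom, at percentiles 12.6 and 12.1 of all genes, and their order turned around in BY4741, where ECM22 was the lower. In footprints ERG25 led with 659 CPM per kb, against a median of 36.9 over all genes. ECM22 (11.5 ± 1.39) and UPC2 (11.3 ± 1.79) had the lowest footprint levels and differed by less than their spread, with ECM22 again the lower in BY4741.

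Without glucose, the polyA RNA of sterol genes moved both ways. HMG2, the squalene synthase gene ERG9, the scaffold gene ERG28, ARE2 and ECM22 rose, and the isomerase gene IDI1, the cyclase gene ERG7, ERG11, ERG25, ERG5 and CYB5 fell. By edgeR's quasi-likelihood test with Benjamini-Hochberg adjustment over all genes, 5 of 30 members were higher and 6 lower. Over all 5304 genes tested, 20.4% were higher and 19.2% lower, so the members' shares are near the background. The members' median log2 change was -0.04, against -0.03 over all genes. The libraries of the 2 conditions did not overlap in HMG2 and ECM22, which were higher without glucose, nor in ERG1, ERG7 and IDI1, which were lower, and over all genes this held for 12.1% upward and 8.97% downward.

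**Figure D1:**
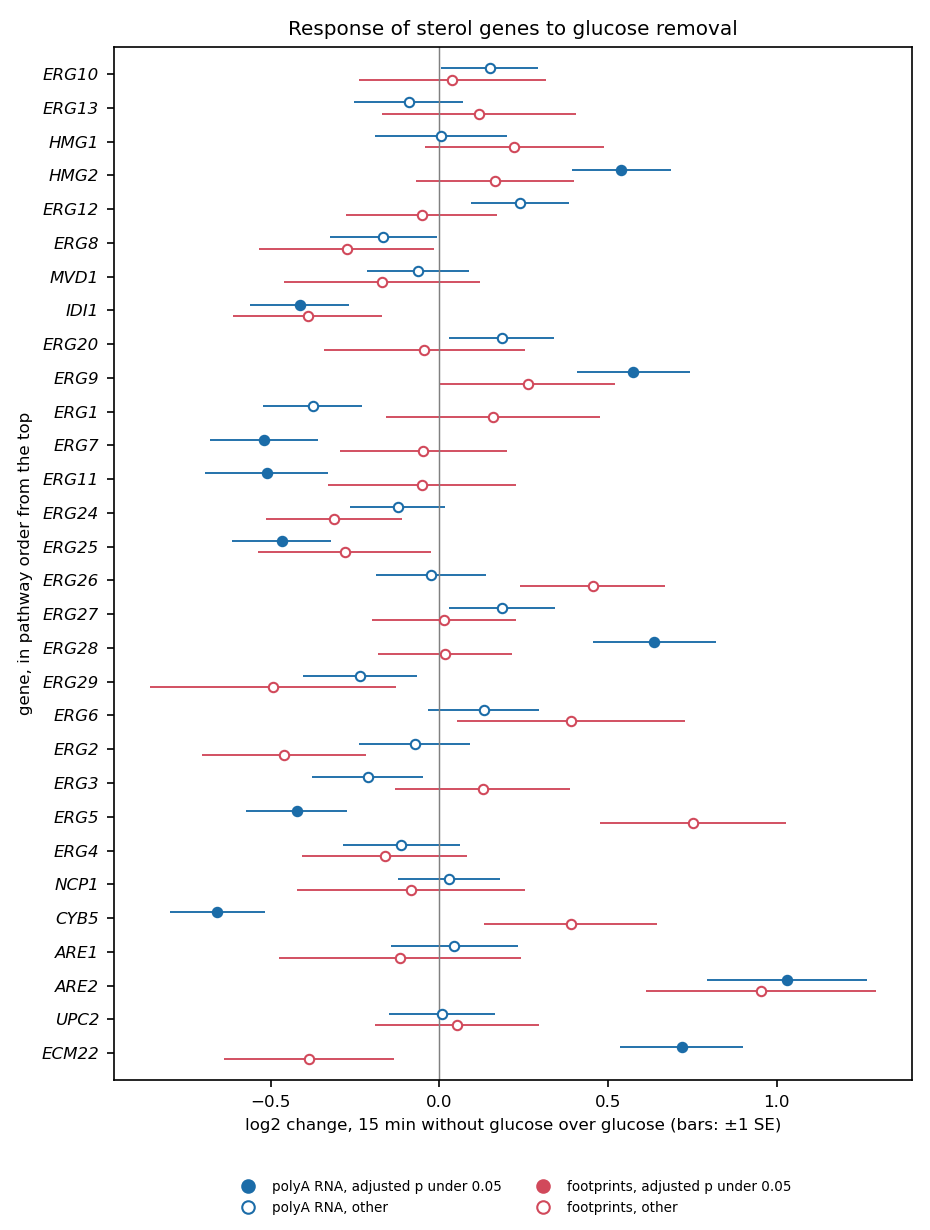
Log2 change of each member without glucose over glucose, in pathway order, for polyA RNA (blue) and footprints (red), over 8 libraries each with bars of 1 SE; filled points have an adjusted p under 0.05. The 11 filled points are all polyA values, from -0.66 for CYB5 to 1.03 for ARE2. Of those 11 members, ERG5, CYB5 and ECM22 have polyA and footprint values on opposite sides of 0, as do some members without a filled point.

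Among the 7 genes of the mevalonate pathway, 1 rose. HMG2 stood at 59.2 and 77.8 CPM in the BY4741 glucose libraries, 70.8 and 71.0 in the EY0690 ones, 85.4 and 104.5 in starved BY4741, and 109 and 109 in starved EY0690. All 4 starved values lie above all 4 glucose values. The log2 change was 0.54 ± 0.15 (SE, adjusted p = 0.0123), and with library size alone as scaling it was 0.44 with an adjusted p of 0.0597. HMG1 gave a log2 change of 0.00 ± 0.20, and the other 5 genes gave values from -0.17 (the kinase gene ERG8) to 0.24 (the kinase gene ERG12).

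Of the 5 genes from isopentenyl diphosphate to lanosterol, ERG9 rose and IDI1 and ERG7 fell. ERG9, whose enzyme commits isoprenoids to sterols, read 254, 214, 247 and 304 CPM in glucose (BY4741, then EY0690) and 406, 270.4, 426 and 420.1 without it. In each strain both starved values lie above both glucose values. ERG9 gave a log2 change of 0.57 ± 0.17 (adjusted p = 0.0169). It missed the threshold without the second glucose BY4741 library (adjusted p = 0.0547) or the first glucose EY0690 library (adjusted p = 0.053). ERG7 read 223, 199.9, 176.5 and 223 CPM in glucose and 117, 161, 134 and 162 without it, so every starved value was below every glucose value. Its log2 change was -0.52 ± 0.16 (adjusted p = 0.0218). The call was lost without the first glucose or the first starved BY4741 library, the second glucose or the first starved EY0690 library (log2 changes -0.49 to -0.39, adjusted p 0.0590 to 0.0781). IDI1, the gene of the isopentenyl diphosphate isomerase, read 381, 351, 441 and 357 CPM in glucose and 255, 272, 332.5 and 292 without it, again with no overlap. It fell by 0.42 ± 0.15 on the log2 scale (adjusted p = 0.0389), and of the fits that each left out 1 library it passed only in the one without the second glucose EY0690 library, with adjusted p 0.0520 to 0.113 in the other 7. ERG1, the squalene epoxidase gene, read 551, 491, 492.5 and 469.5 CPM in glucose and 339, 401.5, 379.6 and 425 without it. Those groups do not overlap either, yet it had a log2 change of -0.38 ± 0.15 that missed the threshold (adjusted p = 0.0595). DESeq2 gave it an adjusted p of 0.0302, and library size alone 0.0264.

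The 12 genes from lanosterol to ergosterol held 1 rise and 3 falls. ERG28, whose product holds the demethylation enzymes together, went from 64.1 and 48.7 CPM to 77.8 and 61.6 in BY4741, and from 115 and 88.1 to 208 and 197 in EY0690. Both EY0690 starved values exceed every other value, and the BY4741 conditions overlap. The log2 change was 0.64 ± 0.18 (adjusted p = 0.0159), and it missed the threshold without the second glucose EY0690 library (0.52, adjusted p = 0.0514).

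The demethylase gene ERG11, the target of azole drugs, read 886, 952, 790.2 and 925 CPM in glucose and 436, 642, 646 and 793 without it. Only the second starved EY0690 value reaches the range of the glucose values. ERG11 fell by 0.51 ± 0.18 (adjusted p = 0.0415), ERG25 by 0.47 ± 0.15 (adjusted p = 0.0235) and ERG5, the desaturase of the side chain, by 0.42 ± 0.15 (adjusted p = 0.0402).

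ERG25 read 474.5, 408.5, 571 and 609 CPM in glucose and 288, 354, 430.3 and 416 without it, and ERG5 189, 204, 264 and 331 against 159, 160.1, 183 and 222. In each strain the starved values of both genes lie below the glucose values. Of the members that did not pass, ERG3 read 498.5, 627, 493.5 and 615 CPM in glucose and 448, 516, 409 and 553 without it, and ERG6 323.5, 269.7, 474 and 499.9 against 395, 275, 463 and 571. The groups overlap in both.

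The 3 falls were not kept in every fit that left out 1 library. ERG11 passed without the second starved library of either strain or the first glucose EY0690 library, and the other 5 fits gave adjusted p from 0.0848 to 0.128. ERG25 passed without the second glucose or second starved BY4741 library and gave 0.0506 to 0.0689 in the other 6, and ERG5 passed without the first glucose or second starved BY4741 library and gave 0.0655 to 0.141 in the other 6. Of the 5 oxygen-dependent enzyme genes (ERG1, ERG11, ERG25, ERG3 and ERG5) all 5 had polyA changes below 0 and 3 fell, with a median of -0.42. Over all genes 2770 of 5304 had changes below 0 and 19.2% fell, with a median of -0.03.

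Of the electron donors, CYB5 fell and NCP1 gave 0.03 ± 0.15. CYB5 went from 65.8 and 62.6 CPM to 33.1 and 43.6 in BY4741, and from 159 and 165 to 104 and 113 in EY0690. Within each strain both starved values lie under both glucose values. The log2 change was -0.66 ± 0.14, a 1.58-fold fall (adjusted p = 0.00337), and it passed in each of the 8 fits that left out 1 library.

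ARE2, the acyltransferase gene that does most sterol esterification in aerobic cells, had the largest change among the 30 members. It went from 80.6 and 56.7 CPM to 187 and 79.7 in BY4741 and from 139 and 169 to 369.6 and 293 in EY0690. Each library rose from its partner of the same number, although the second starved BY4741 value lies just under the first glucose one. The log2 change was 1.03 ± 0.24, a 2.04-fold rise (adjusted p = 0.00496), and it passed in all 8 fits that left out 1 library. ARE1, its paralog, read 60.3, 46.4, 70.3 and 87.4 CPM in glucose and 73.4, 44.3, 67.2 and 82.9 without it, a log2 change of 0.04 ± 0.19. ARE1 shares 298 bases with YCR050C on chromosome III, and as the sources used here do not say whether counting used strand, its values are uncertain.

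Of the regulators, ECM22 rose and UPC2 did not pass. ECM22 read 34.3, 46.8, 41.2 and 32.0 CPM in glucose and 57.3, 55.2, 81.4 and 69.2 without it, with no overlap. Its log2 change was 0.72 ± 0.18 (adjusted p = 0.00827), kept in all 8 fits that left out 1 library. UPC2 stood at 32.8 to 55.7 CPM in glucose and 33.0 to 50.6 without it, a log2 change of 0.01 ± 0.16.

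In RNA without polyA selection, which has no replicate and no test, ARE2 changed by 0.97 (log2) in BY4741 and by 1.21 in the pooled EY0690 column, and ERG28 by 0.89 and 0.79. Of the 11 members that passed in polyA RNA, 9 had the same sign in BY4741 total RNA. The exceptions were ERG25 (0.24) and ERG5 (0.30), both above 0 there. In the pooled EY0690 column 10 of 11 had the same sign, IDI1 (0.11) being the exception. How often all genes that passed in polyA RNA kept their sign was not computed. ECM22 was at 0.06 in BY4741 total RNA and at 0.47 in EY0690, and CYB5 at -0.15 and -0.75. All-gene medians were -0.01 in both. Of the oxygen-dependent enzyme genes, ERG1 (0.07), ERG25 (0.24), ERG3 (0.52) and ERG5 (0.30) were above 0 in BY4741 total RNA, and ERG11 (-0.17) was below. In the pooled EY0690 column all of them were below 0, from -0.47 (ERG25) to -0.10 (ERG3).

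The other genes of sterol handling were counted by list, with at most the 2 largest changes in each direction named. Over all genes 20.4% rose and 19.2% fell in polyA RNA, so several of the list counts are near that background. Of 7 genes of steryl ester and sterol acetate turnover, 3 fell and 0 rose, led by the steryl ester hydrolase genes YEH1 (-1.08 ± 0.21, adjusted p = 0.0018) and YEH2 (-0.59 ± 0.15, adjusted p = 0.00823). Among 9 other regulators 4 rose and 0 fell, with ROX1 at 1.66 ± 0.31 and CYC8, which encodes a corepressor, at 1.01 ± 0.20. Regulated degradation of the reductase had 3 rises, led by HRD1 (0.62 ± 0.18) and DER1 (0.51 ± 0.16), and 1 fall, NSG1 (-0.59 ± 0.17), among 10 genes. Sterol transport had 5 rises in 15 genes, led by LAM5 (1.36 ± 0.21) and LAM4 (1.01 ± 0.15), and 2 falls, HES1 (-0.95 ± 0.33) and ARV1 (-0.69 ± 0.23). Of 10 genes of other isoprenoid branches 2 fell, BTS1 (-0.69) and RER2 (-0.64), and of 9 heme genes 2 rose, HEM15 (0.83) and HEM14 (0.53). Acetyl-CoA supply had 3 rises in 5 genes, led by ACS1 (2.86 ± 0.20) and ALD6 (1.00 ± 0.21), and none of 7 sterol uptake and anaerobic wall genes passed. In footprints ROX1 (2.04 ± 0.41) and ACS1 (2.70 ± 0.40) were the 2 genes of these lists that passed, against 2.93% of all genes higher.

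In footprints, no member passed in either direction by edgeR, and DESeq2 also gave 0. Over 5018 genes 2.93% were higher and 0.259% lower. At an unadjusted p under 0.05 there were 2 members, ARE2 and ERG5, against 761 of 5018 genes. The standard errors of the members ran from 0.20 to 0.36, against 0.14 to 0.24 in polyA RNA, and the members' median was -0.02 against -0.03 over all genes.

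ARE2 had the largest footprint change of the members. Its footprints went from 121 and 70.6 CPM to 278 and 83.1 in BY4741, and from 220.5 and 224 to 467 and 422 in EY0690. The change was thus small between the BY4741 libraries numbered 2 and present in the other 3 pairs. The log2 change was 0.95 ± 0.34 (adjusted p = 0.190), close to its polyA change of 1.03. It passed without the second starved BY4741 library (1.22, adjusted p = 0.00581), without both BY4741 libraries numbered 2 (1.07, adjusted p = 0.00583), in EY0690 alone (0.99, adjusted p = 0.00889) and with the replicate block (0.86, adjusted p = 0.0236). These fits, also used for ERG5 below, called more genes over the whole table as well. The first gave 333 higher and 154 lower, against 147 and 13 in the reported fit.

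ERG5, whose RNA fell, had a footprint change above 0. They read 207 and 207 CPM in glucose and 381 and 200.2 without it in BY4741, and 272 and 365 against 623 and 671 in EY0690. Of the 4 starved libraries 3 lie above every glucose library, and the second BY4741 library lies below them. The log2 change was 0.75 ± 0.28 (adjusted p = 0.202). It was 0.96 (adjusted p = 0.0173) without the second starved BY4741 library, 0.97 (adjusted p = 0.0109) without both BY4741 libraries numbered 2, and 1.02 (adjusted p = 0.00888) in EY0690 alone. ERG6, the sterol methyltransferase gene, gave 0.39 ± 0.34 over both strains, -0.08 in BY4741 and 0.87 (adjusted p = 0.0222) in EY0690. The footprint libraries of the 2 conditions did not overlap in ERG26 (0.45 ± 0.21), higher without glucose, and in ECM22 (-0.39 ± 0.25), lower, against 3.83% and 1.75% of all genes.

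**Figure D2:**
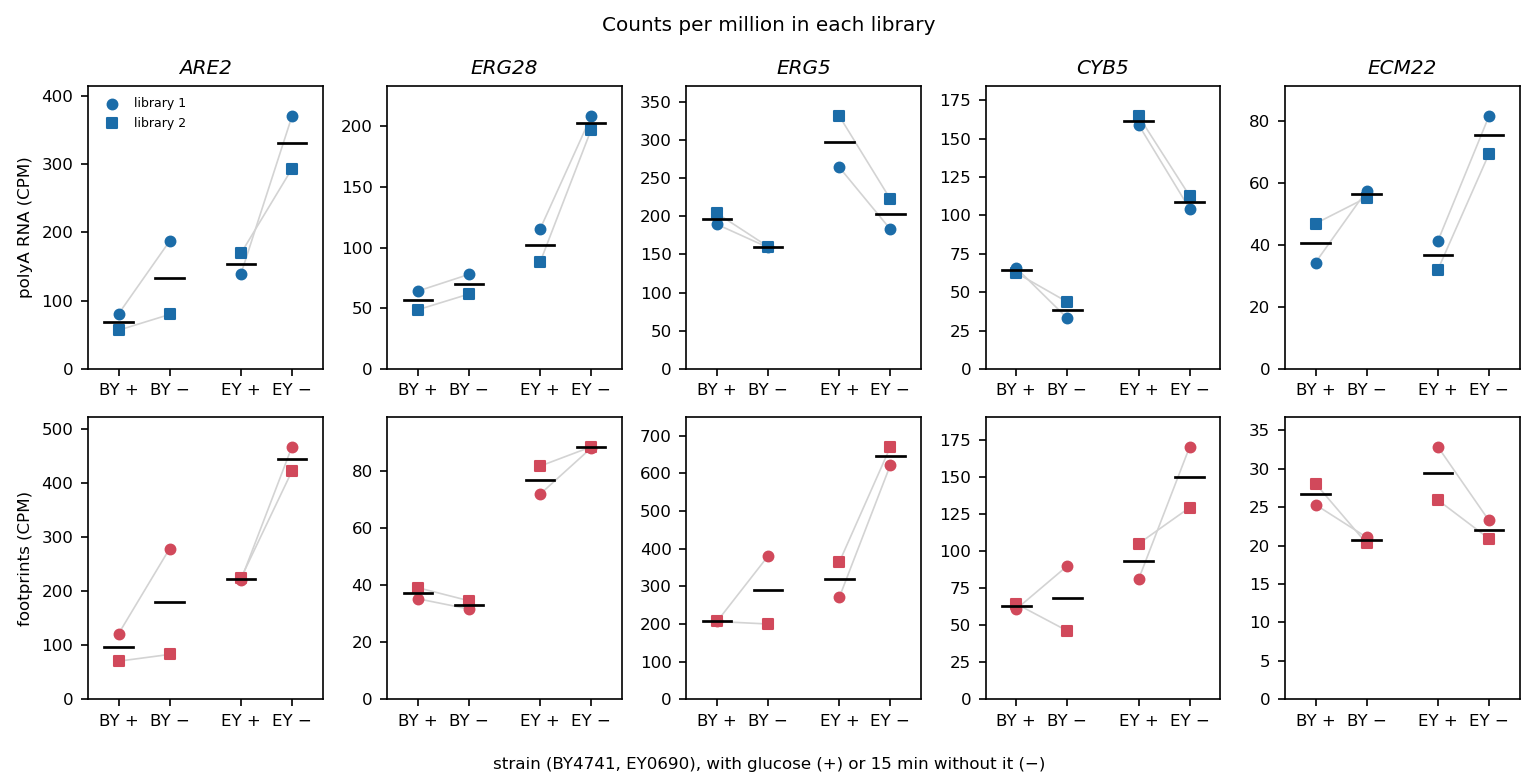
CPM of 5 members in each library, polyA RNA above and footprints below, by strain with (+) and without (−) glucose; black bars are means of 2 libraries, and grey lines join libraries of the same number. ARE2 is higher without glucose in both rows, while ERG5 and CYB5 fall in polyA RNA and ECM22 rises in polyA RNA, from 32.0 to 46.8 CPM up to 55.2 to 81.4, with footprints that are lower.

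Ribosome occupancy is the footprint level relative to polyA RNA, and its change without glucose was fitted over 16 libraries. No member passed by edgeR, against 0.279% of all genes higher and 1.06% lower (14 and 53 genes, or 4 and 48 with library size alone). Of the members, 4 had an unadjusted p under 0.05, against 828 of 5018 genes. DESeq2 called 3 members: ERG5 (adjusted p = 0.00837) and CYB5 (0.0363) higher and ECM22 (0.0144) lower. The members' median was -0.03, against 0.05 over all genes.

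ERG5 had the largest increase among the members, 1.24 ± 0.31 on the log2 scale, a 2.36-fold change (adjusted p = 0.0580). Its footprint CPM divided by the polyA CPM of the matching library was 1.10 and 1.02 in glucose and 2.39 and 1.25 without it in BY4741, and 1.03 and 1.10 against 3.41 and 3.02 in EY0690. All 4 starved ratios exceed all 4 glucose ratios. The change passed with the replicate block (1.21, adjusted p = 0.0336), without the second starved BY4741 footprint library (1.45, adjusted p = 0.00632), without both BY4741 footprint libraries numbered 2 (1.46, adjusted p = 0.00540) and in EY0690 alone (1.67, adjusted p = 0.0226). These fits, also used for CYB5 below, called more genes over the whole table as well. Without the second starved BY4741 footprint library 71 genes were higher and 85 lower, against 14 and 53 in the reported fit.

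CYB5 and ECM22 lay on opposite sides of 0. CYB5 footprints read 60.8, 64.4, 81.0 and 105 CPM in glucose and 89.9, 46.2, 170.1 and 129 without it, while its RNA fell. The occupancy change was 1.10 ± 0.30 (adjusted p = 0.0803), and it passed without the second starved BY4741 footprint library (1.35, adjusted p = 0.00632), without both BY4741 footprint libraries numbered 2 (1.37, adjusted p = 0.00716) and in EY0690 alone (1.38, adjusted p = 0.0335). For ECM22, footprints read 25.3, 28.05, 32.8 and 25.9 CPM in glucose and 21.1, 20.3, 23.3 and 20.9 without it, each starved value below each glucose one, while its RNA rose. Its occupancy change was -1.06 ± 0.28 (adjusted p = 0.0732). It passed with the replicate block (-1.07, adjusted p = 0.0343), without the first starved BY4741 footprint library (-1.12, adjusted p = 0.0394) and without the second starved BY4741 polyA library (-1.23, adjusted p = 0.0351). The fits without 1 library gave 64 higher and 161 lower, and 41 and 131, over all genes. ECM22 was not among the members that passed without both BY4741 footprint libraries numbered 2. The other oxygen-dependent enzyme genes gave occupancy changes above 0, from 0.25 (ERG25) to 0.59 (ERG1), none of which passed. ARE2 gave -0.01 ± 0.45.

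In glucose, many sterol genes held more footprints for their RNA than the scaling reference. By edgeR, 15 of 30 members were higher and 2 lower, against 21.6% and 23.4% of all genes. The members' median was 0.48, against -0.07 over all genes. TMM sets the zero of this ratio: with library size alone the median over all genes moved to -0.59, and 441 genes were higher and 2103 lower against 1086 and 1174 under TMM. Of the members, 4 (NCP1, MVD1, ERG6 and ERG13) were then higher and 4 (ERG26, ERG8, IDI1 and ERG27) lower. The values below are on the TMM scale.

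NCP1 stood highest of the members, with 1.92 ± 0.29 on the log2 scale, 3.78-fold (adjusted p = 0.000466). Its footprint to polyA ratio in glucose was 2.98 and 1.60 in BY4741 and 2.92 and 2.76 in EY0690, so the second BY4741 library gave the lowest. In the mevalonate pathway 5 of 7 members were higher, led by the decarboxylase gene MVD1 (1.19 ± 0.23, adjusted p = 0.00138) and the synthase gene ERG13 (1.03 ± 0.22, adjusted p = 0.00230). ERG20, ERG9 and ERG1 were higher among the 5 genes up to lanosterol, at 0.89, 0.67 and 0.94, and 4 of the 12 later genes were higher, led by ERG6 (1.08 ± 0.27). Both acyltransferase genes passed, ARE2 at 1.07 and ARE1 at 0.94. Neither regulator passed, ECM22 at 0.08 and UPC2 at 0.12. The 2 lower members were ERG26, a dehydrogenase gene (-0.78 ± 0.18, adjusted p = 0.00386), and IDI1 (-0.49 ± 0.17, adjusted p = 0.0281), and ERG8 (-0.50 ± 0.21, adjusted p = 0.0611) passed with the replicate block (adjusted p = 0.0303).

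Under TMM, the calls of NCP1, MVD1, ERG13, ERG6, HMG1, HMG2, ERG1, ERG20, ERG25 and ERG26 passed in all 16 fits that left out 1 library. The count of higher members ran from 10 to 16 in those fits, with 10 without the first glucose BY4741 footprint library and 10 without the first glucose EY0690 polyA library. The count over all genes was 798 and 922 in these fits, against 1086 in the reported one. The first of these omissions ended the calls of ARE1, ARE2, ERG12, ERG5 and ERG9, and the second those of ARE1, ERG11, ERG12, ERG5 and ERG9. IDI1 passed in 9 of 16 fits, ERG5 in 10 and ARE1 in 12, with adjusted p up to 0.119, 0.0697 and 0.130 in the others.

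**Figure D3:**
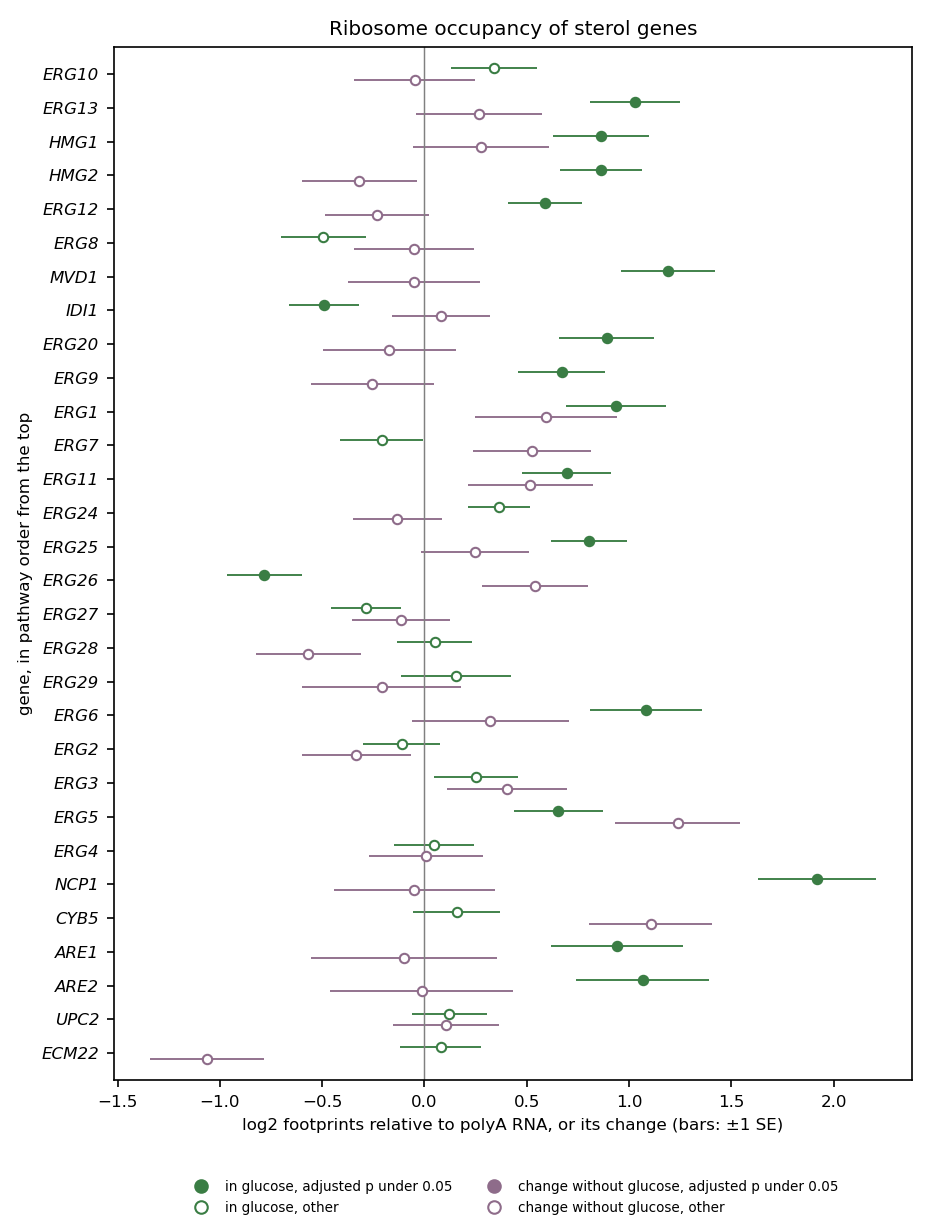
Log2 footprints relative to polyA RNA in glucose (green) and the log2 change of that ratio without glucose (purple) for each member over 16 libraries, with bars of 1 SE; filled points have an adjusted p under 0.05. NCP1 lies farthest to the right in glucose at 1.92, and no purple point is filled, with ERG5 at 1.24 and ECM22 at -1.06 as the extremes.

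Several members differed between the strains, most of them higher in EY0690. Over both conditions together, 11 of 30 members were higher in EY0690 polyA RNA and 2 lower, against 20.2% and 17% of all genes, and the members' median was 0.30 against 0.01. In footprints 9 were higher and 0 lower, against 11.2% and 10.7%, with a median of 0.50 against -0.06. At an unadjusted p under 0.05 there were 12 members in footprints, against 1850 of 5018 genes. DESeq2 gave 10 members higher and 0 lower there, against 657 and 632 of the 5018 genes. The 8 members higher in both kinds of library (HMG1, ERG12, MVD1, ERG25, ERG28, ERG5, CYB5 and ARE2) are 72.7% of the polyA list and 88.9% of the footprint list. The same overlap was not computed over all genes, so it cannot be called particular to the members.

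HMG1 had the largest strain difference in both. Its polyA RNA read 99.8, 140.5, 85.6 and 109.5 CPM in BY4741 (glucose, then starved) and 279, 346, 331 and 444 in EY0690. Its footprints read 147, 101.5, 178 and 95.4 against 422, 512, 549 and 603. The strains do not overlap in either. The log2 differences were 1.68 ± 0.20 in polyA RNA (3.21-fold, adjusted p = 7.88e-05) and 2.0 ± 0.27 in footprints (4.01-fold, adjusted p = 0.000948). The isozyme gene HMG2 gave 0.13 ± 0.15 and 0.22 ± 0.23.

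Further along the mevalonate pathway, ERG12 was higher by 1.10 ± 0.15 (adjusted p = 0.000167) in polyA RNA and 1.19 ± 0.23 (adjusted p = 0.00444) in footprints. Its polyA values were 82.8 to 94.2 CPM in BY4741 and 151 to 230.5 in EY0690, with no overlap. MVD1 read 217, 175, 164 and 163 CPM in BY4741 polyA RNA (glucose, then starved) and 297, 282, 304 and 335 in EY0690. It was higher by 0.77 ± 0.15 and 0.93 ± 0.29 (adjusted p = 0.00203 and 0.0395). Its footprint value fell to 0.57 (adjusted p = 0.116) without both BY4741 footprint libraries numbered 2, and it passed in 2 of 8 fits that left out 1 library, those without the first BY4741 footprint library of either condition. None of the 5 genes from isopentenyl diphosphate to lanosterol passed in polyA RNA. ERG7 passed in footprints (0.81 ± 0.25, adjusted p = 0.0359) with a polyA difference of 0.00 ± 0.16, and the difference between these was not tested. Its footprints read 74.2, 102, 63.2 and 116 CPM in BY4741 and 185, 144, 169 and 130.1 in EY0690, with no overlap. That footprint call held in 2 of 8 fits, without the first or the second starved BY4741 library (adjusted p 0.0507 to 0.119 in the other 6), and it was lost with library size alone (0.62, adjusted p = 0.244).

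**Figure D4:**
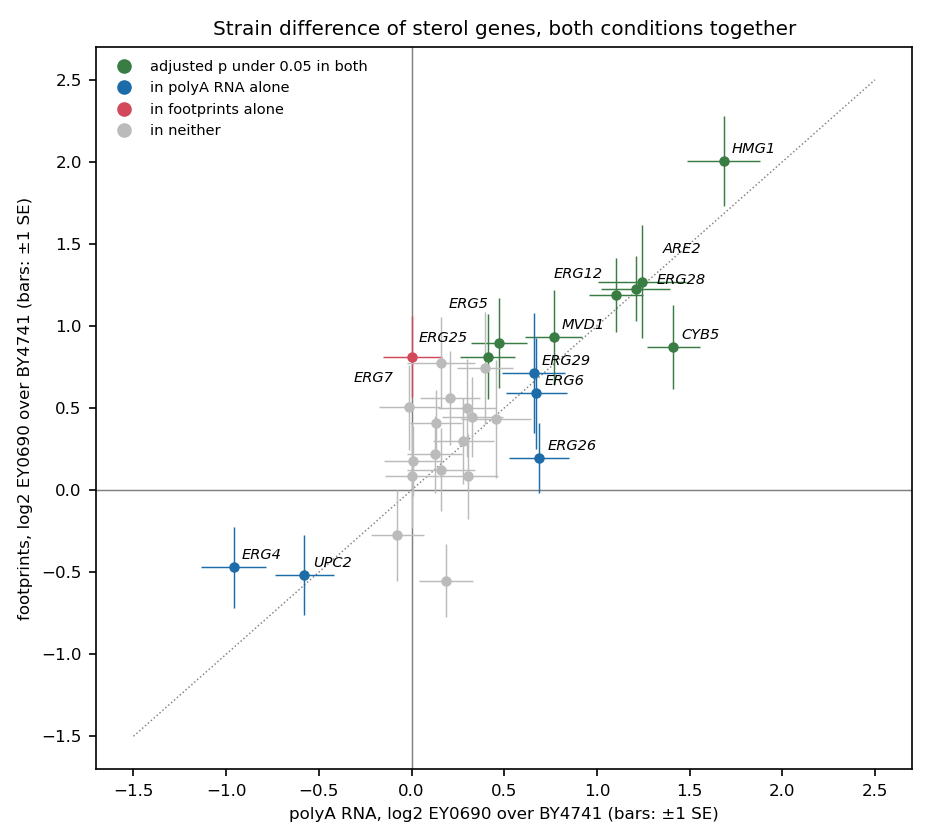
Strain difference of each member over both conditions, EY0690 over BY4741, in polyA RNA (x axis, log2) and footprints (y axis, log2), with bars of 1 SE, colours for the tests passed and a dotted line of equality. The 8 members that passed in both lie in the upper right, HMG1 farthest out at 1.68 and 2.0, while ERG4 and UPC2 lie in the lower left.

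Among the later genes, ERG28 was higher by 1.21 ± 0.18 (adjusted p = 0.000381) in polyA RNA and 1.23 ± 0.20 (adjusted p = 0.00199) in footprints. ERG26 read 259, 221, 220.3 and 213 CPM in BY4741 polyA RNA and 411, 298, 426 and 333 in EY0690, and ERG29, an endoplasmic reticulum protein gene of the pathway, 27.7, 33.5, 25.9 and 24.03 against 46.5, 46.0, 37.7 and 45.1. Neither gene's strains overlap. ERG26, ERG29 and ERG6 were higher in polyA RNA by 0.69, 0.66 and 0.67, and their footprint differences of 0.19, 0.71 and 0.59 did not pass. ERG4, whose reductase makes the last step to ergosterol, was lower in EY0690: 794, 835, 717 and 809 CPM in BY4741 polyA RNA against 331, 520.2, 340.1 and 434 in EY0690. Its difference was -0.96 ± 0.18 (adjusted p = 0.00122) in polyA RNA and -0.47 ± 0.25 (adjusted p = 0.183) in footprints, where the strains do not overlap either. ERG25 and ERG5 passed in both kinds by small margins (0.41 and 0.47 in polyA RNA). ERG25 kept each call in 1 of 8 fits that left out 1 library, without the second starved BY4741 polyA library (0.47, adjusted p = 0.0397) and without the first starved BY4741 footprint library (0.87, adjusted p = 0.0361). ERG5 kept its footprint call only without the first starved BY4741 library (1.04, adjusted p = 0.0208), with 0.0567 to 0.113 in the other 7 and 0.0514 without both BY4741 libraries numbered 2. Its polyA call was lost without the first or second glucose BY4741 library and the second EY0690 library of either condition (adjusted p 0.0673 to 0.108).

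CYB5 was higher in EY0690 by 1.41 ± 0.14 in polyA RNA, 2.66-fold (adjusted p = 2.81e-05), and by 0.87 ± 0.26 in footprints (adjusted p = 0.0318). The footprint call was lost with library size alone (adjusted p = 0.0546), without both BY4741 footprint libraries numbered 2 (adjusted p = 0.0726) and in 6 of 8 fits that left out 1 library, all but those without the first starved BY4741 and the first glucose EY0690 library. NCP1 gave 0.39 ± 0.15 in polyA RNA (adjusted p = 0.0571) and 0.74 ± 0.34 in footprints (adjusted p = 0.135; 0.0372 with the replicate block). ARE2 was higher by 1.25 ± 0.24 (adjusted p = 0.00161) and 1.27 ± 0.34 (adjusted p = 0.0222). In footprints ARE2 missed the threshold without the second glucose BY4741 library or without any single EY0690 library (adjusted p 0.0579 to 0.0771).

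UPC2 was lower in EY0690 polyA RNA, 34.4, 32.8, 34.8 and 33.0 CPM against 45.1, 55.7, 50.6 and 50.6 in BY4741, with no overlap. The log2 difference was -0.58 ± 0.16 (adjusted p = 0.0125), and -0.51 (adjusted p = 0.0523) without the second glucose BY4741 library. In footprints it was -0.52 ± 0.24 (adjusted p = 0.146). ECM22 gave 0.16 ± 0.18. Over the members, the 4 libraries of EY0690 lay above the 4 of BY4741 for 8 genes and below for 2 in polyA RNA, and likewise for 8 and 2 in footprints. Over all genes the shares were 9.86% and 10.1% in polyA RNA and 10.7% and 9.57% in footprints.

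**Figure D5:**
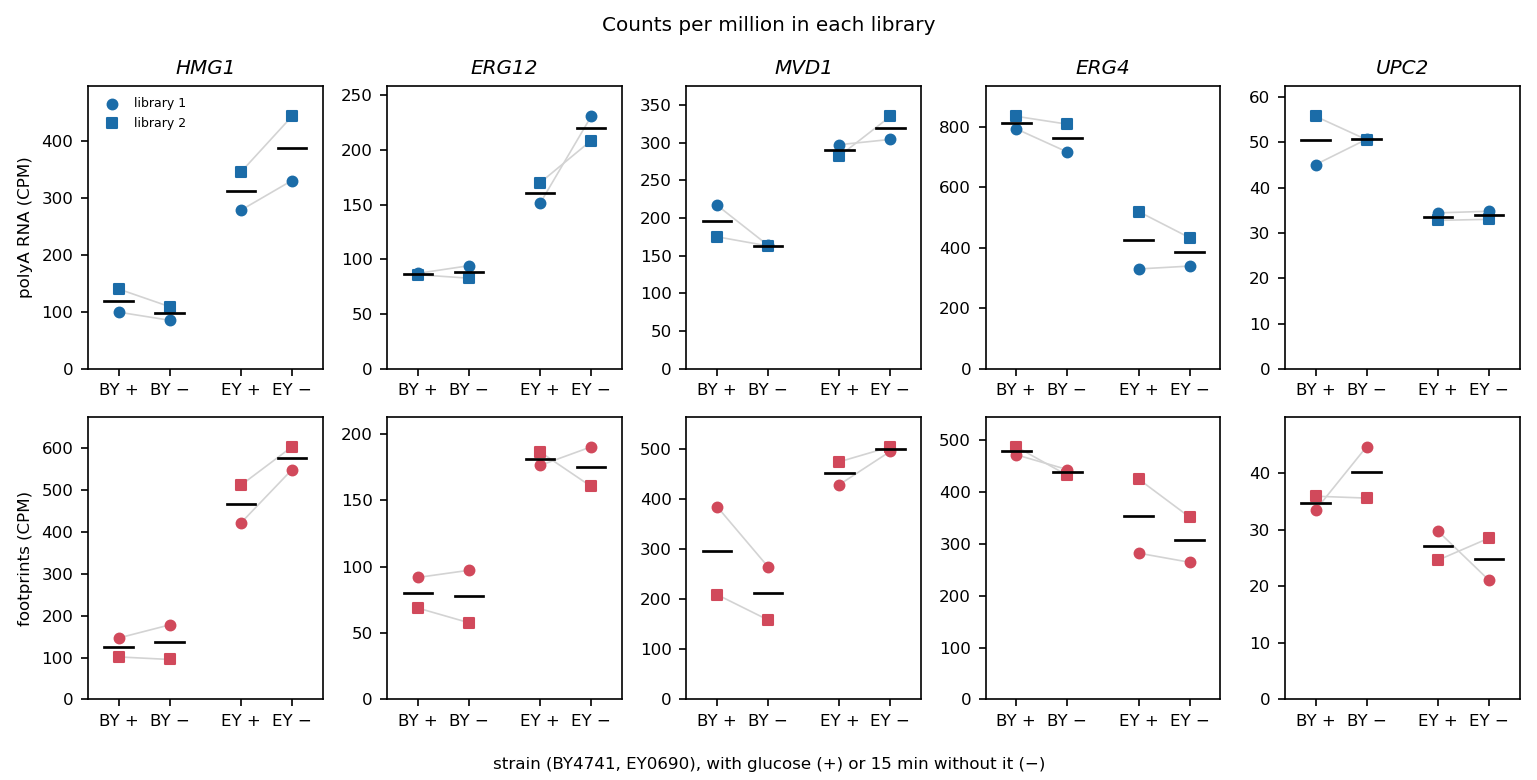
CPM of 5 members in each library, polyA RNA above and footprints below, by strain with (+) and without (−) glucose; black bars are means of 2 libraries, and grey lines join libraries of the same number. HMG1 and ERG12 are higher in every EY0690 library than in any BY4741 library, and ERG4 and UPC2 lower.

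Hap1 activates genes for respiration and, in glucose-grown aerobic cells, several sterol genes. S288C-derived strains carry a transposon insertion in HAP1. In these libraries HAP1 polyA RNA was 98.4, 199.5, 134 and 162 CPM in BY4741 and 56.2, 49.1, 80.2 and 84.5 in EY0690, a log2 difference of -1.16 ± 0.23 (adjusted p = 0.00174), and its footprints differed by 0.17 ± 0.30 (adjusted p = 0.714). Of 7 other genes known as Hap1 targets, 7 were higher in EY0690 polyA RNA (median 1.85) and 6 in footprints (median 2.47), among them CYC7 at 3.90 in polyA RNA. Over all genes 20.2% were higher in polyA RNA (median 0.01) and 11.2% in footprints (median -0.06). The list of targets was written with earlier results of these data known, so its counts are not independent of them. The part of Hap1 in the members' strain differences was not tested.

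Whether the strains responded differently to glucose removal was tested as a strain by condition term. No member passed in polyA RNA, against 0.0566% and 0.113% of all genes, or in footprints, where 0% of all genes passed in either direction. At an unadjusted p under 0.05 there were 0 members in both, against 300 of 5304 genes in polyA RNA and 152 of 5018 in footprints. DESeq2 gave 0 members. The term had standard errors of 0.29 to 0.47 in polyA RNA and 0.40 to 0.75 in footprints. A p that misses the threshold does not show that the strains responded alike. ERG28 had the largest polyA term, 0.68 ± 0.33 (adjusted p = 0.932), with responses of 0.34 in BY4741 and 0.99 in EY0690. In polyA RNA 22 of 30 members had a response of the same sign in both strains, and in footprints 17 of 30. The share over all genes was not computed, so these counts do not show that the strains agreed.

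The share of footprints in the start region, where ribosomes that have just begun are found, was compared between conditions within each library. Of 24 members with enough counts none passed, against 3.45% of 2870 genes higher and 0.488% lower. An unadjusted p under 0.05 was held by 2 members, against 490 of 2870 genes, and DESeq2 gave 0 members. The members' median log2 change was -0.10 while the median over all genes was 0.52. NCP1 had the lowest value, -1.64 ± 0.61 (adjusted p = 0.115). Its start region held 10.6% and 3.79% of footprints in glucose and 0.63% and 1.42% without it in BY4741, and 3.15% and 2.79% against 2.14% and 2.0% in EY0690. These shares rest on 5 to 183 start-region counts a library. ARE2 had the highest, 0.98 ± 0.60 (adjusted p = 0.388), with 23.9% and 16.1% in starved EY0690 against 8.12% and 9.42% in glucose, and it passed without the first glucose BY4741 library (1.44, adjusted p = 0.0496). That fit gave 433 genes higher over the whole table, against 99 in the reported one.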

How the data were processed

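Ribosome footprints and RNA were counted per gene. Reads were aligned with Bowtie 0.12.8 to build R64, per the submitters' processing notes. For the counting program, its annotation, its use of strand and its handling of reads with several matches, the sources used here name nothing. Per the file headers, the deposited table holds counts for the initiation part of each gene and for the part downstream of it. The deposited RPKM was used for a check only, in genes with an RPKM of 20 or more in a library. Within 2%, in 100% of those genes, it is the downstream count over gene length and over the reads of both parts. Blank count cells, 60 and 20 of them in 2 libraries, have an RPKM of 0 and were taken as 0. A further 16 per-sample columns, 12 of them the authors' log2 ratios, were not used. Of 5381 identifiers 5380 matched the R64 annotation, whose coordinates are printed. The members and the lists were chosen with earlier results of these data known.

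Tests used edgeR 4.0.16 in R 4.3.3 (quasi-likelihood F test, TMM scaling, Benjamini-Hochberg adjustment over all genes, threshold 0.05) on downstream counts. A gene entered a test if 4 or more libraries of each kind had 10 or more counts. SE is the size of the log2 change over the root of the F statistic. The 9 tests are the polyA and footprint responses (8 libraries, strain as covariate), occupancy and its change (16 libraries), the strain differences (condition as covariate), the strain by condition terms, and the start-region share. CPM are TMM-scaled, so changes are relative to other mRNAs. The tests share libraries. Alternatives were other scalings, DESeq2 1.42.0, no count filter, both regions summed, each strain alone, leaving out libraries and a replicate block. Scripts were tested on simulated data. Libraries of the same number deviated together in every pair (correlation of deviations from group means 0.148 and 0.306 in polyA RNA, 0.683 and 0.207 in footprints, 0.187 to 0.466 between the kinds). The numbers come from the labels. They were taken as pairs in the replicate block and in the footprint to polyA ratios of single libraries. The reported fits leave this pairing out. By the naming rule, values by library go to members past the threshold in a response, occupancy change or strain test and to 12 key enzyme, esterification and regulator genes, the others by range and count, and at most the 2 largest calls in each direction are named per list. NCP1 and ERG8 fall outside it and were singled out after their values were seen. The 600-base motif window was chosen after the data were seen. The listed gene spans equal those of R64 for 759 genes, so levels per kb use the table's own lengths. None of the 30 members shares more than 0.08% of its 28-base words with another gene, so reads of the paralogs can be told apart. Samples carry the labels' groups, and EY0690 unselected RNA entered only as the authors' pooled count.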

Additional observations from a re-analysis of the deposited data

How the results depend on the processing

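No member that passed changed direction in any alternative run. With BY4741 alone 0 members were higher and 0 lower in polyA RNA, against 419 and 7 of 5335 genes. With EY0690 alone 4 members were higher and 1 was lower, against 997 and 665 of 5216 genes. Leaving out each library in turn gave 4 to 5 higher and 1 to 5 lower, against 893 to 1216 and 667 to 1124 over all genes. The footprint response, 0 higher in the reported fit, gave 1 with the replicate block, 2 without both BY4741 footprint libraries numbered 2, 3 with EY0690 alone and 0 to 2 on leaving out each library. The fits that left out 1 library gave 79 to 333 higher and 1 to 154 lower over all genes. The occupancy change, 0 in each direction, gave 2 higher and 1 lower with DESeq2, 1 and 1 with the replicate block, 2 higher without both BY4741 footprint libraries numbered 2, 2 higher with EY0690 alone, and 0 to 2 higher and 0 to 1 lower on leaving out each library. Its counts over all genes in the fits without 1 library were 1 to 71 higher and 19 to 161 lower. Occupancy in glucose gave 4 higher and 4 lower with library size alone, which shifted the median of all genes, and 10 to 16 higher and 1 to 3 lower on leaving out each library. The latter fits gave 798 to 1264 higher and 600 to 1258 lower over all genes. The strain differences gave 9 to 12 higher and 1 to 2 lower in polyA RNA, and 3 to 10 higher and 0 to 1 lower in footprints, on leaving out each library. Those fits gave 890 to 1092 higher and 665 to 1177 lower over all genes in polyA RNA. In footprints they gave 310 to 871 higher and 214 to 854 lower. The start-region share gave 0 to 1 higher, and over all genes 217 higher with the replicate block against 99. Where a call was lost or gained in a fit of fewer libraries, that fit has fewer degrees of freedom or a different spread, and otherwise the cause was not tested. The replicate block changed no member's call other than those printed beside ARE2, ERG5, ECM22, ERG8 and NCP1. Over all genes, it raised the footprint response from 147 higher and 13 lower to 324 and 105, and the occupancy change from 14 and 53 to 94 and 152, and DESeq2 gave 240 and 59, and 58 and 142. Both regions summed gave 253 and 20, and 3 and 17. Without both BY4741 footprint libraries numbered 2 these were 380 and 200, and 92 and 110. With EY0690 alone they were 367 and 171, and 70 and 78. Library size alone moved the median of all genes from -0.03 to -0.17 in the footprint response, from -0.06 to -0.18 in the footprint strain difference, from 0.03 to -0.12 in the polyA strain by condition term and from -0.07 to -0.50 in the footprint one. The EY0690 glucose footprint libraries are the shallowest, with 698310 and 880315 counts.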

Other observations

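ERG13, the gene of HMG-CoA synthase, had almost no counts in its initiation region, so its start-region share could not be tested. Over the 8 footprint libraries it held 5 initiation-region counts beside 16685 downstream, and over the 8 polyA libraries 8 beside 15296. Of the 305 genes with at least as many downstream counts over both kinds of library, ERG13 had the lowest start-region share, 0.041% against a median of 5.90%. The gap is present in RNA as well as in footprints, and its cause was not tested. This gene was chosen after its values were seen.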
